A study of Mus musculus with 12 samples.

Results

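The osteoclast genes described here are 7 genes, Acp5, Ctsk, Atp6v0d2, Ocstamp, Dcstamp, Tnfrsf11a and Oscar, taken by symbol from a deposited table of 53801 genes. They were read across 12 RNA-seq libraries of whole mouse bone marrow, 3 in each of 4 groups of C57BL/6N mice. MI-E mice had a myocardial infarction, made by tying off a coronary artery (LAD), and were given EMPA, the name of the agent in the labels. MI mice had the infarction without EMPA, Sham-E mice had a sham operation with EMPA, and Sham mice had the sham operation alone. The labels used here give no dose of EMPA, time after surgery, age or sex of the mice, or way of taking marrow from the bone. They also do not tie each library to a mouse of its own, so the p-values below measure only the spread between these samples, which may be technical.

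Osteoclasts are the cells that break down bone, and they form when precursors of the monocyte and macrophage line fuse into large cells with several nuclei. The cytokine RANKL (Tnfsf11), made largely by bone-forming and stromal cells, binds the receptor RANK (Tnfrsf11a) on the precursor, while osteoprotegerin (Tnfrsf11b) captures RANKL and holds the process back. The mature cell seals off a patch of bone, pumps acid onto it through a proton pump and releases enzymes that digest the exposed matrix. The 7 genes cover these steps. Tnfrsf11a and Oscar, a collagen-binding costimulatory receptor, receive signals. Dcstamp and Ocstamp encode membrane proteins needed for fusion. Atp6v0d2 encodes a subunit of the proton pump with a further part in fusion, Acp5 the tartrate-resistant acid phosphatase used to stain osteoclasts, and Ctsk the collagen-digesting protease cathepsin K.

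The genes lie on 7 chromosomes. In the mm10 build, with gene limits of the GENCODE M21 annotation, Tnfrsf11a spans chr1:105780718-105847981 on the plus strand and Oscar chr7:3609813-3616157 on the minus strand. Dcstamp spans chr15:39745930-39760938 on the plus strand and Ocstamp chr2:165393760-165400405 on the minus strand. Atp6v0d2 spans chr4:19876841-19922605 on the minus strand, Acp5 chr9:22126727-22135711 on the minus strand and Ctsk chr3:95499256-95509362 on the plus strand. Acp5 shares 137 of its exon bases (6.749%) with a gene on the opposite strand, which had 0 to 3 counts per library against 916 to 2842 for Acp5. The other genes share no exon base with another annotated gene.

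Promoter windows of 250 bases before to 50 after the start were found for 4 of the 7 genes in RefSeq's GRCm38.p6 (mm10) table, with 3 windows for Acp5 and 1 each for Ctsk, Tnfrsf11a and Oscar. Windows of Acp5 and Ctsk are shown because these are the most abundant of the 7 genes and their levels did not track each other, as described below. Capitals mark matches, on either strand, to short motifs of factors known to act in osteoclasts: the NFAT core GGAAA, the PU.1 core GAGGAA and the E-box CANGTG of the MITF family. The Acp5 window is the most downstream of its 3, at chr9:22130549-22130848, and is read on the minus strand. The Ctsk window is chr3:95498960-95499259 on the plus strand.
Acp5: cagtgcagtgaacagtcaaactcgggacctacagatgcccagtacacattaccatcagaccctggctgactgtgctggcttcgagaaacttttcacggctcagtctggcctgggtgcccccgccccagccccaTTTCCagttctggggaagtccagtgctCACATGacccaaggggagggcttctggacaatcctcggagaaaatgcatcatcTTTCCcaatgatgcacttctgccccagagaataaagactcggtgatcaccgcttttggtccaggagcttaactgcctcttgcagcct
Ctsk: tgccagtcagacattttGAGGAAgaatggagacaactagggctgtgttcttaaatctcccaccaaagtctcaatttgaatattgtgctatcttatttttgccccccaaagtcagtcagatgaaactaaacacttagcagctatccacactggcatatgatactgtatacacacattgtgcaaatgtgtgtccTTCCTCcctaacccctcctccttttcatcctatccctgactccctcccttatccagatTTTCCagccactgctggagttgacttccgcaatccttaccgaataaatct

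The Acp5 window held 2 NFAT cores and 1 E-box, at -117, -37 and -90 from the start, and no PU.1 core. The Ctsk window held 2 PU.1 cores, at -233 and -58, and 1 NFAT core, at 1, with no E-box. These are common strings. Of 32851 promoter windows in the table, 61.3% held GGAAA, 28.3% GAGGAA and 44.9% CANGTG. The AP-1 motif TGANTCA, held by 7.81% of all windows, matched in none of the 6 windows of these genes. A match is a description of letters in the window and a missing match says only that the letters are not there.

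The 12 libraries held 21175087 to 24606783 counts each, and 15119 genes passed the filter on low counts. Levels between groups are given in CPM, edgeR's counts scaled to library size, on which 3 counts in a library, the limit that a count of 0 allows, are 0.122 to 0.142 CPM. Of the 7 genes, 5 passed the filter and could be tested, and Dcstamp and Oscar did not. Sham-E 1 stood apart from the other libraries: its 9 monocyte markers summed to 5448 CPM, against 2052 to 4688 CPM elsewhere, and its 7 erythroid markers to 5999 CPM, against 10816 to 37134 CPM. The mean insert length recovered from the counts and TPM was 280.0 to 282.5 bp in MI-E, 263.5 to 265.0 bp in MI, 271.0 to 280.5 bp in Sham-E and 284.0 to 287.0 bp in Sham. Insert length and group cannot be told apart where MI is compared with MI-E or Sham, or where Sham-E is compared with Sham. Every MI library was below, and every Sham library above, all libraries of the other groups.

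The 7 genes spanned a wide range of levels. TPM, which is per transcript length, orders genes against each other. The median over the 12 libraries was 90.6 TPM for Acp5, 4.44 TPM for Ctsk, 0.86 TPM for Tnfrsf11a, 0.47 TPM for Atp6v0d2, 0.165 TPM for Ocstamp, 0.075 TPM for Dcstamp and 0.03 TPM for Oscar. Acp5 was above Ctsk in all 12 libraries, Ctsk above Tnfrsf11a in all 12 and Atp6v0d2 above Ocstamp in all 12. The other neighbours in this order overlapped. Tnfrsf11a was above Atp6v0d2 in 9 of 12 libraries, Ocstamp above Dcstamp in 10 of 12, and Dcstamp above Oscar in 6 of 12. The acid phosphatase was thus the most abundant of the 7 in every library, and both fusion genes and Oscar lay at the low end.

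**Figure D1:**
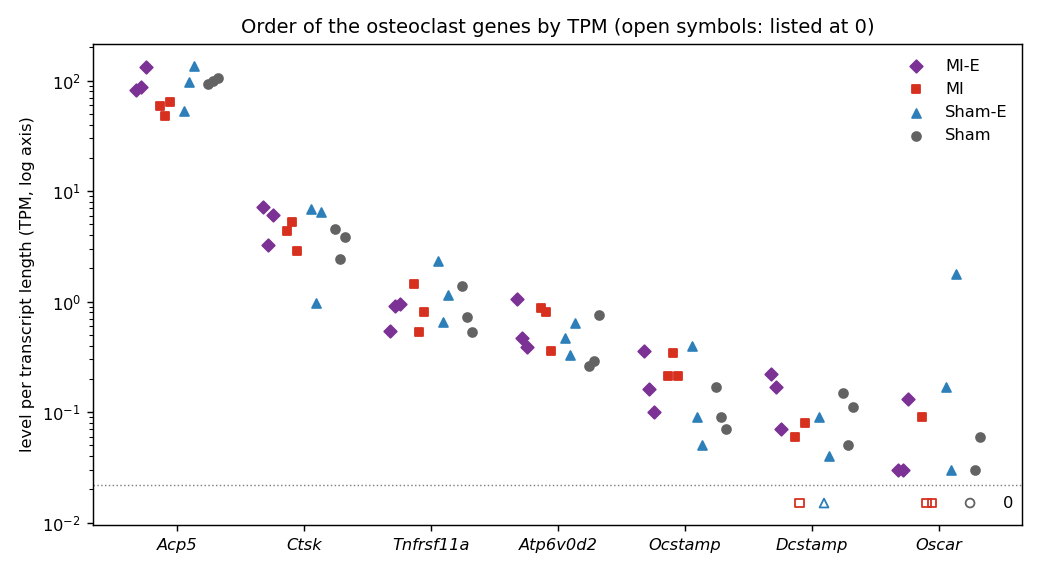
Level of each osteoclast gene per transcript length (TPM, log axis) in the 12 libraries, coloured by group, in the order of the median. Open symbols at the foot mark the 2 Dcstamp and 3 Oscar values listed at 0, and the Oscar point at 1.78 TPM is Sham-E 3, which had 5 counts.

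For 3 genes, count and TPM were not in a fixed ratio from library to library. Oscar had 5 counts in Sham-E 3, listed as 1.78 TPM, and the same 5 counts in Sham-E 1, listed as 0.17 TPM. The effective transcript length implied by count and TPM was 151.4 bases in Sham-E 3. In the other libraries where it could be read it was 1481 and 1496 bases. Each implied length here is the full length less about the mean insert length, while the annotated lengths are full. The annotation holds a non-coding Oscar transcript of 388 bases beside coding ones of 1796 to 1829 bases. For Tnfrsf11a the implied length ran from 2516 to 4731 bases over the 12 libraries, and its annotation has retained-intron transcripts of 611 and 1041 bases beside a coding one of 5027 bases. Dcstamp had an implied length of 1753 bases in Sham 4, from 4 counts listed as 0.11 TPM, against 1071 to 1106 bases in the 3 other libraries where it could be read. For Acp5 the implied length stayed between 1015 and 1096 bases. Comparisons between groups below rest on counts.

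The name of the gene group does not show that osteoclasts were abundant in these samples. Calcr, the calcitonin receptor of mature osteoclasts, had 0 counts in all 6 MI-E and MI libraries, 2, 0 and 2 counts in Sham-E and 1, 0 and 0 counts in Sham. Siglec15, a receptor that takes part in osteoclast fusion, had 3, 2 and 1 counts in MI-E, 0, 0 and 1 in MI, 4, 3 and 2 in Sham-E and 11, 7 and 8 in Sham. Dcstamp and Oscar stayed at 0 to 5 counts. Other genes that osteoclasts use were abundant, and these are also expressed by other marrow cells. Mmp9, a gelatinase also stored by neutrophils, averaged 1921 ± 259 CPM in MI-E, 2175 ± 595 CPM in MI, 1638 ± 311 CPM in Sham-E and 1480 ± 113 CPM in Sham (SD, n = 3 each). Car2, a carbonic anhydrase also found in red cells, ran from 218 CPM in Sham-E 1 to 2147 CPM in another Sham-E library. Acp5 is likewise known from macrophages. In bulk RNA, fewer cells of a type and less RNA per cell cannot be told apart.

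Across all comparisons, none of the 5 tested genes passed the threshold. In edgeR's quasi-likelihood test with Benjamini-Hochberg adjustment over 15119 genes, 0 of 5 had an adjusted p under 0.05 in MI against Sham, where 0.417% of all genes were called, and 0 of 5 in MI-E against MI, where 0.00661% were. The count was also 0 of 5 in Sham-E against Sham and in MI-E against Sham-E, where 0.0% of all genes were called, in the interaction (0.00661%) and in the test of any difference among the 4 groups (0.0265%). At an unadjusted p under 0.05, 1 of 5 passed in MI-E against MI, where 17.4% of all genes did, and 1 of 5 in the interaction, where 13.5% did. Both were Acp5. None passed at that level in the test of any difference (18.0% of all genes), in MI against Sham (19.5%), in MI-E against Sham-E (13.4%) or in Sham-E against Sham (1.9%). DESeq2, limma-voom and limma on log2 TPM also called 0 of 5 in each comparison.

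The receptor RANK averaged 2.67 ± 0.739 CPM in MI-E, 2.70 ± 0.736 CPM in MI, 3.77 ± 2.11 CPM in Sham-E and 2.63 ± 0.641 CPM in Sham (SD, n = 3 each). Tnfrsf11a had 1.82, 3.15 and 3.05 CPM in MI-E libraries, 3.401, 1.93 and 2.76 CPM in MI, 5.79, 1.59 and 3.91 CPM in Sham-E and 3.33, 2.50 and 2.06 CPM in Sham. The highest and the lowest library were both Sham-E, and all groups overlapped. The log2 fold change was -0.02 ± 0.43 in MI-E against MI and 0.04 ± 0.43 in MI against Sham (SE, adjusted p = 0.985 and 0.972, edgeR). The unadjusted 95% interval of the MI-E against MI difference ran from -0.95 to 0.91, so a difference of either sign within these bounds is compatible with these values. Sham-E against Sham gave 0.51 ± 0.43 (adjusted p = 1.0) and MI-E against Sham-E -0.49 ± 0.43 (adjusted p = 0.622). Without Sham-E 1, the highest library, these were 0.060 and -0.040.

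Oscar, the costimulatory receptor, was close to the detection limit everywhere. It had 1, 1 and 4 counts in MI-E, 3, 0 and 0 in MI, 5, 1 and 5 in Sham-E and 0, 1 and 2 in Sham. Summed over 3 libraries this was 6 counts in MI-E (exact Poisson 95% interval 2.2 to 13.1), 3 in MI (0.619 to 8.77), 11 in Sham-E (5.49 to 19.7) and 3 in Sham (0.619 to 8.77). The intervals overlap and cover counting error only, and their overlap is not a test of a difference. In a fit without the filter on low counts, Oscar had a log2 fold change of 1.82 in Sham-E against Sham (unadjusted p = 0.209, edgeR). It was 0.93 in MI-E against MI (adjusted p = 0.837). Oscar passed the threshold in no comparison of that fit.

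Of the fusion genes, Dcstamp was equally sparse. It had 5, 4 and 2 counts in MI-E, 2, 0 and 2 in MI, 2, 0 and 1 in Sham-E and 3, 1 and 4 in Sham. The sums were 11 counts in MI-E (5.49 to 19.7), 4 in MI (1.09 to 10.2), 3 in Sham-E (0.619 to 8.77) and 8 in Sham (3.45 to 15.8). In a fit without the filter on low counts the log2 fold change of Dcstamp was 1.35 in MI-E against MI (adjusted p = 0.702, edgeR) and -0.79 in MI against Sham (adjusted p = 0.824).

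Ocstamp, the other fusion gene, was higher in every MI than in every Sham library, at low counts. It had 1.06, 0.572 and 0.319 CPM in MI-E libraries, 0.672, 0.991 and 0.641 CPM in MI, 1.17, 0.233 and 0.133 CPM in Sham-E and 0.469, 0.246 and 0.199 CPM in Sham. MI stood above Sham without overlap, while Sham-E held both the highest and the lowest of the 12 values. The counts behind these levels were 7 to 25 in MI-E, 13 to 20 in MI, 3 to 27 in Sham-E and 5 to 11 in Sham. The log2 fold change in MI against Sham was 1.32 ± 0.76 (adjusted p = 0.348, edgeR), with a 95% interval from -0.32 to 2.96. MI-E against MI gave -0.23 ± 0.72 (adjusted p = 0.898) and MI-E against Sham-E 0.35 ± 0.73 (adjusted p = 0.855). Sham-E against Sham gave 0.74 ± 0.77 (adjusted p = 1.0).

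The proton pump subunit Atp6v0d2 had 2.07, 1.10 and 0.819 CPM in MI-E libraries, 1.89, 1.59 and 0.740 CPM in MI, 0.908, 0.582 and 1.2 CPM in Sham-E and 0.469, 0.533 and 1.39 CPM in Sham. Each group held at least 1 library below 1 CPM and 1 above it, and all groups overlapped. The log2 fold change was 0.81 ± 0.55 in MI against Sham (adjusted p = 0.436, edgeR) and -0.08 ± 0.54 in MI-E against MI (adjusted p = 0.955). It was 0.16 ± 0.56 in Sham-E against Sham (adjusted p = 1.0) and 0.57 ± 0.55 in MI-E against Sham-E (adjusted p = 0.66).

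Cathepsin K had group means of 6.27 ± 1.87 CPM in MI-E, 4.69 ± 1.28 CPM in MI, 4.98 ± 3.52 CPM in Sham-E and 3.56 ± 1.02 CPM in Sham (SD, n = 3 each). Ctsk had 7.66, 4.15 and 7.01 CPM in MI-E libraries, 5.12, 5.70 and 3.26 CPM in MI, 7.35, 0.932 and 6.67 CPM in Sham-E and 4.39, 2.42 and 3.85 CPM in Sham. Sham-E 2, at 0.932 CPM from 24 counts, was far below the other libraries of its group, and all groups overlapped. The log2 fold change was 0.42 ± 0.56 in MI-E against MI (adjusted p = 0.739, edgeR), 0.40 ± 0.56 in MI against Sham (0.725) and 0.48 ± 0.56 in Sham-E against Sham (1.0). In MI-E against Sham-E it was 0.34 ± 0.56 (adjusted p = 0.817). The highest library was 8.22 times the lowest, against 8.76 times for Ocstamp, 4.42 for Atp6v0d2, 3.64 for Tnfrsf11a and 2.85 for Acp5.

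Acp5, the acid phosphatase, was the only one of the 5 tested genes with groups apart in both MI against Sham and MI-E against MI. In these comparisons, each taken alone, the groups were apart for 27.3% and 21.7% of all genes tested. The share of all genes apart in both, which use the same MI libraries, was not computed. Acp5 had 75.0, 92.9 and 129.3 CPM in MI-E libraries, 60.2, 45.4 and 61.9 CPM in MI, 49.7, 78.7 and 118.5 CPM in Sham-E and 76.7, 86.2 and 90.3 CPM in Sham. Every MI library was below every MI-E and every Sham library, while Sham-E spanned nearly the whole range. The group means were 99.1 ± 27.7 CPM in MI-E, 55.8 ± 9.05 CPM in MI, 82.3 ± 34.6 CPM in Sham-E and 84.4 ± 6.99 CPM in Sham (SD, n = 3 each).

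The log2 fold change of Acp5 in MI-E against MI was 0.83 ± 0.28 (SE), a ratio of 1.78 with a 95% interval from 1.17 to 2.7, with an unadjusted p of 0.0114 and an adjusted p of 0.174 (edgeR). In MI against Sham it was -0.60 ± 0.28, a ratio of 0.661 with an interval from 0.435 to 1.0 (adjusted p = 0.261). Both comparisons share the MI libraries. The interaction, the EMPA difference after infarction less that after sham, was 0.86 ± 0.39 (unadjusted p = 0.0469, adjusted p = 0.366). Sham-E against Sham gave -0.04 ± 0.28 (adjusted p = 1.0) and MI-E against Sham-E 0.27 ± 0.28 (adjusted p = 0.685). Over the 22 alternatives in scaling, filter, tool, block and libraries left out, Acp5 in MI-E against MI stayed between 0.59 and 0.99, with adjusted p from 0.0674 to 0.461.

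The interaction of the other 4 tested genes was -0.97 ± 1.05 for Ocstamp, -0.53 ± 0.61 for Tnfrsf11a, -0.24 ± 0.78 for Atp6v0d2 and -0.07 ± 0.79 for Ctsk (SE, log2 scale), with adjusted p from 0.691 to 0.978 in edgeR. Differences that use the Sham-E group were sensitive to Sham-E 1, the library that stood apart. Without it, Sham-E against Sham was -0.70 for Ocstamp, 0.22 for Acp5, 0.086 for Ctsk and 0.15 for Atp6v0d2. MI-E against Sham-E without it was 1.79 for Ocstamp (adjusted p = 0.242) and 0.73 for Ctsk (adjusted p = 0.573). The interaction without it was -0.079 for Tnfrsf11a, 0.47 for Ocstamp, 0.33 for Ctsk and -0.23 for Atp6v0d2. That of Acp5 was 0.60 (adjusted p = 0.487), and its MI-E against MI difference was 0.83 (adjusted p = 0.0674).

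Groups that do not overlap were common in this series. Between MI and Sham the libraries of 2 of the 5 tested genes did not overlap, Ocstamp higher and Acp5 lower, against 27.3% of all genes in either direction. Between MI-E and MI this held for 1 of 5, Acp5, against 21.7% of all genes. It held for 0 of 5 in Sham-E against Sham, where 8.98% of all genes did not overlap, and for 0 of 5 in MI-E against Sham-E, where 23.9% did not. The median log2 fold change of the 5 genes was 0.40 in MI against Sham and -0.02 in MI-E against MI, beside medians over all genes of 0.02 and -0.02.

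**Figure D2:**
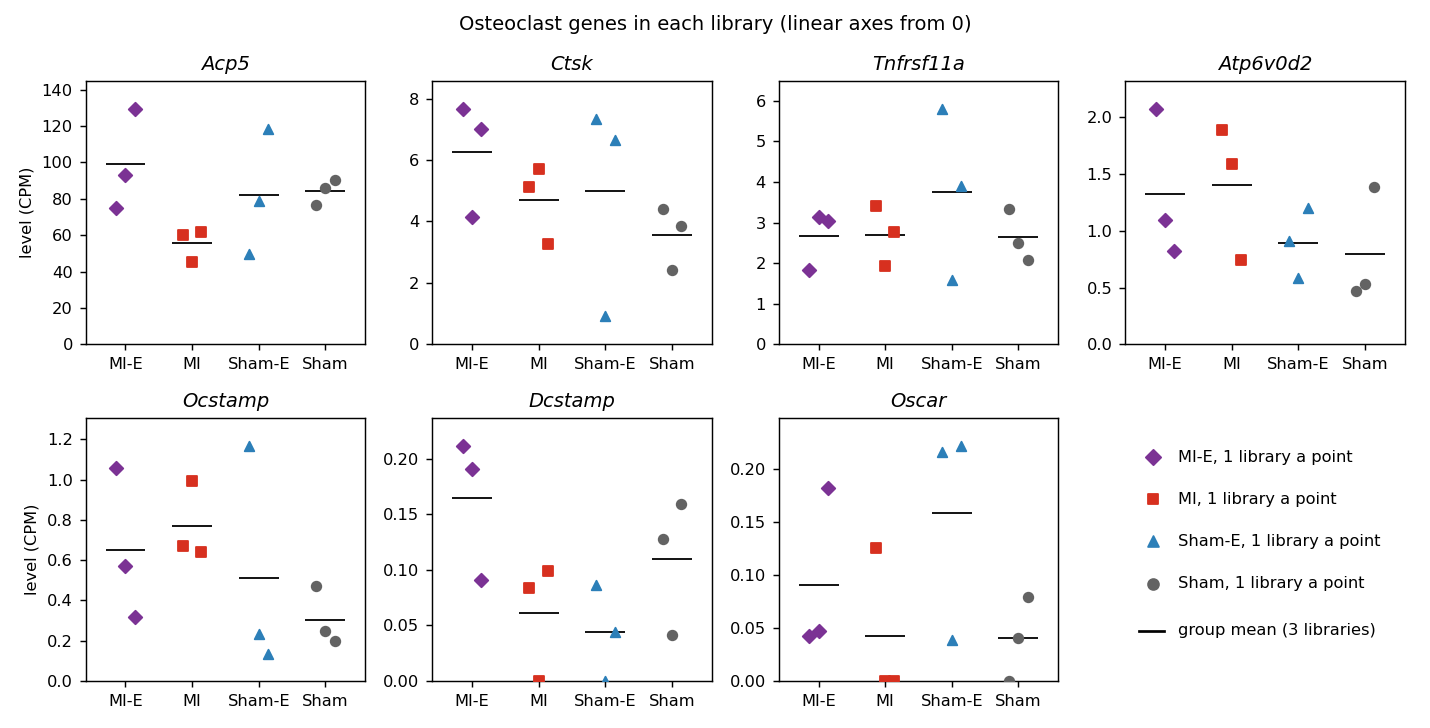
Level of each osteoclast gene (CPM, linear axes from 0) in the 12 libraries, 1 point a library, with a bar at the mean of the 3 libraries of a group. Acp5 is lower in all MI libraries, at 45.4 to 61.9 CPM, than in all MI-E and Sham libraries, while the panels of Dcstamp and Oscar rest on 0 to 5 counts per library.

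**Figure D3:**
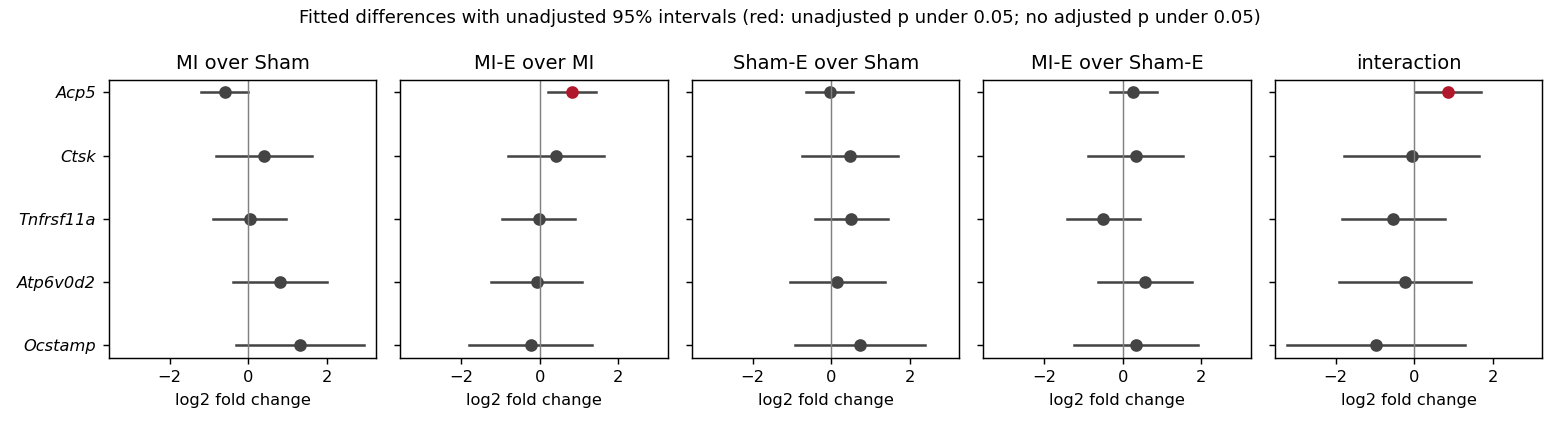
Log2 fold change (points) and unadjusted 95% interval (lines) of the 5 tested genes in the 4 pairwise comparisons and the interaction. The red points, Acp5 in MI-E over MI at 0.83 and in the interaction at 0.86, are those with an unadjusted p under 0.05, and the widest intervals belong to Ocstamp.

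The 10 pairs among the 5 tested genes had Pearson's r from -0.765 to 0.555. Over the 12 libraries, which share the 4 groups and their differences in cell makeup, Pearson's r of log2 CPM was -0.029 between Acp5 and Ctsk, the most abundant pair. Acp5 and Ocstamp ran opposite, with r of -0.765 and Spearman's rho of -0.776. The value was -0.783 without the 2 libraries farthest from the median of Acp5, -0.71 without Sham-E 1, and -0.951 on deviations from the group means. Ocstamp rests on 3 to 27 counts per library in these values. The pairs with the highest positive r were Ctsk with Atp6v0d2 at 0.555 and Ctsk with Tnfrsf11a at 0.507, and these were 0.318 and 0.201 without the 2 farthest libraries. Without Sham-E 1 they were 0.6 and 0.439, and on deviations from the group means 0.487 and 0.638.

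**Figure D4:**
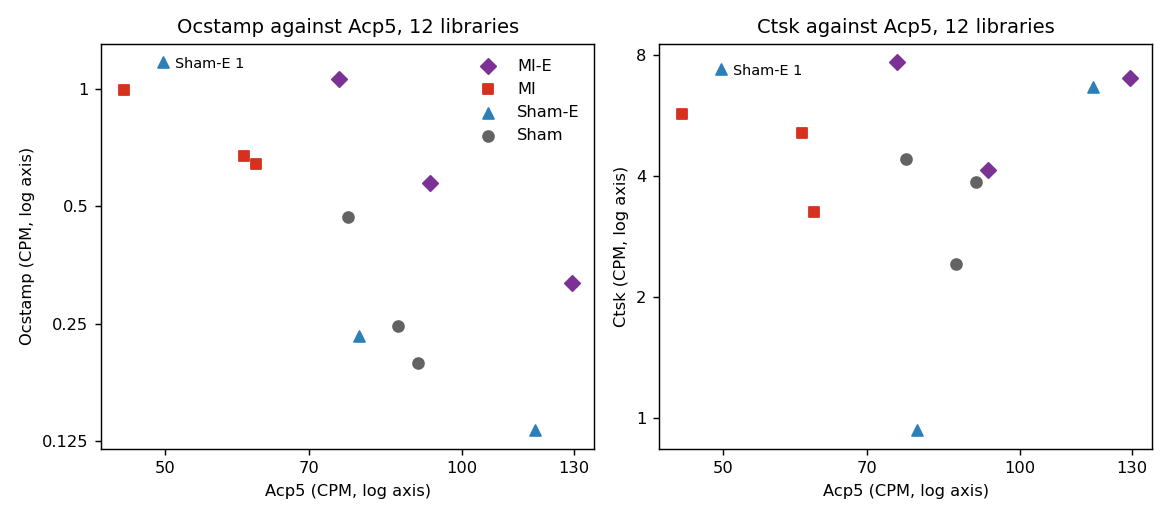
Ocstamp (left) and Ctsk (right) against Acp5 in the 12 libraries, in CPM on log axes, 1 point a library. Ocstamp is lower in libraries where Acp5 is higher, with r of -0.765, and Ctsk shows no such trend, with r of -0.029.

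Markers of other cell types moved with some of these levels, and their part in the results was not tested. With the summed other osteoclast markers, which include Mmp9 and Car2, r was 0.48 for Acp5, 0.248 for Atp6v0d2, -0.021 for Ctsk, -0.306 for Ocstamp and -0.335 for Tnfrsf11a. With the osteoblast and bone matrix markers it was 0.386 for Acp5, 0.023 for Ctsk, -0.037 for Tnfrsf11a, -0.211 for Atp6v0d2 and -0.527 for Ocstamp. Ocstamp had r of 0.809 with the summed level of 9 monocyte markers over the 12 libraries, and -0.768 with that of 8 early B-lineage markers. It also had -0.748 with the B-cell, -0.735 with the dendritic cell and 0.67 with the immature neutrophil markers. Sham-E 1 had both the highest Ocstamp level and the highest monocyte sum, and these r were not computed without it. All 9 monocyte markers were measured, and their sum was 3165 to 3652 CPM in MI-E, 2954 to 4688 CPM in MI, 2052 to 5448 CPM in Sham-E and 2065 to 2457 CPM in Sham. The sum does not stand for each marker. In MI against Sham 5 of the 9 lay higher and 4 lower, the latter being Cx3cr1, Nr4a1, Ace and Treml4. Acp5 had r of 0.735 with 7 skeletal muscle markers, 0.69 with 7 erythroid markers, 0.645 with 5 B-cell markers, -0.636 with 6 immature neutrophil markers, -0.598 with the monocyte markers and 0.041 with 14 macrophage markers. The muscle markers summed to 5.24 to 10.2 CPM in MI-E, 3.72 to 4.0 CPM in MI, 2.46 to 5.42 CPM in Sham-E and 6.73 to 9.61 CPM in Sham, with Myh1 at 0 in all but 1 library. The B-cell markers summed to 650.2 to 809.8 CPM in MI-E, 392 to 556 CPM in MI, 467 to 919 CPM in Sham-E and 767 to 1149.8 CPM in Sham. As with Acp5, the muscle and B-cell sums of every MI library were below those of every MI-E and Sham library. The erythroid sum was 18517 to 33311 CPM in MI-E, 10816 to 37134 CPM in MI, 5999 to 25733 CPM in Sham-E and 16325 to 22557 CPM in Sham.

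The genes with profiles most like each osteoclast gene differed from gene to gene. Among 11012 genes compared over the 12 libraries, the highest r with Acp5 was 0.961 for Ssbp3, followed by Mpst (0.954) and Fam78a (0.953). With Ocstamp it was 0.968 for Csf2rb, the common beta chain of the receptors for GM-CSF and related cytokines, followed by Slc39a1 (0.941) and Csf2rb2 (0.939). Csf2rb2 is a near copy of Csf2rb, and how reads were split between them is uncertain. Among the highest with Ctsk were C4b (0.805) and Clu (0.799). With Atp6v0d2 the highest was 0.83 for Nup43, then Tmem237 (0.766) and Emc6 (0.761), and with Tnfrsf11a 0.782 for Phyhd1, then Adipor2 (0.739). Among the highest with the mean of the 5 standardised profiles were Gpx3 (0.873), C4b (0.865), Clu (0.86) and Npl (0.855). These are the highest of many values and are given as a description.

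The rest of the osteoclast pathway was read from 6 lists. Of the 8 tested cytokine and receptor genes of 11 listed, 1 was called higher and 0 lower in MI against Sham, where 0.417% of all genes were called. This was Il6ra, the receptor subunit of interleukin 6, at 188 ± 5.88 CPM in the 3 MI libraries and 109 ± 11.4 CPM in the 3 Sham libraries (SD), a log2 fold change of 0.79 ± 0.15 (adjusted p = 0.0471, edgeR). The call held in 9 of 22 alternatives, with adjusted p from 0.000301 (DESeq2) to 0.189 (without Sham 3). It was lost without any one of the Sham or MI-E libraries, Sham-E 2, MI 1 or MI 3, and with upper-quartile scaling (0.0504), the block for column number (0.169) and limma on log2(TPM + 1) (0.142). Il6ra is also expressed by neutrophils and monocytes. Of 10 mature neutrophil markers 3 were called higher in MI against Sham, beside 0.417% of all genes in either direction, and their sum was 23152 to 37014 CPM in MI-E, 20621 to 36390 CPM in MI, 23308 to 32822 CPM in Sham-E and 23430 to 24818 CPM in Sham; their part in the Il6ra difference was not tested. In MI-E Il6ra was 136 ± 14.0 CPM, a log2 fold change of -0.47 ± 0.15 against MI (adjusted p = 0.162). Sham-E against Sham, without infarction, gave 0.44 ± 0.15 for Il6ra (unadjusted p = 0.0116, edgeR), which did not pass after adjustment. In that comparison 1.9% of all genes had an unadjusted p under 0.05. The Il6ra interaction was -0.91 ± 0.21 (adjusted p = 0.238, edgeR), and DESeq2 called it. The ligand Tnfsf11 had 15, 7 and 9 counts in MI-E, 6, 6 and 13 in MI, 3, 6 and 5 in Sham-E and 9, 5 and 8 in Sham, and its decoy receptor Tnfrsf11b had 0 to 3 counts. Both missed the filter on low counts. In the fit without it Tnfsf11 had log2 fold changes of 0.37 in MI against Sham (adjusted p = 0.871, edgeR), 0.22 in MI-E against MI (0.972) and 1.20 in MI-E against Sham-E (0.652), and Tnfrsf11b had adjusted p of 0.684, 0.582 and 0.840 in these comparisons. Csf1, the growth factor of osteoclast precursors, was 18.3 ± 1.95 CPM in MI-E, 15.4 ± 0.732 CPM in MI, 20.4 ± 1.66 CPM in Sham-E and 20.9 ± 1.29 CPM in Sham. Its log2 fold change in MI against Sham was -0.44 ± 0.14 (adjusted p = 0.116), and that of its receptor Csf1r was 0.10 ± 0.13 (adjusted p = 0.699).

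In the other 5 lists no gene was called in any of the 5 comparisons by edgeR. Of 20 costimulation and signalling genes, 5 had an unadjusted p under 0.05 in MI against Sham, where 19.5% of all genes did, led by Fcer1g, an adaptor of OSCAR and other receptors, at 339 ± 55.5 CPM in MI and 184 ± 19.2 CPM in Sham (log2 fold change 0.88 ± 0.17, adjusted p = 0.0519). Of 14 promoting transcription factors, 5 did, led by Jund, an AP-1 subunit, at 172 ± 49.7 CPM in MI and 390 ± 91.2 CPM in Sham (-1.18 ± 0.33, adjusted p = 0.102). Of 6 restraining factors 1 did, Id2, at 228 ± 127 CPM in MI and 64.6 ± 3.97 CPM in Sham (1.82 ± 0.37, adjusted p = 0.0554). Of 21 genes of acid and matrix breakdown, 8 did, led by the proton pump subunit Atp6v1h at 74.8 ± 9.39 CPM in MI and 49.8 ± 2.47 CPM in Sham (0.59 ± 0.12, adjusted p = 0.0554). Of 12 tested adhesion and fusion genes 2 did, led by Cd47 at 0.51 ± 0.21 (adjusted p = 0.203). Over the 6 lists DESeq2 called 13 of 80 genes with an adjusted p in MI against Sham, 9 higher and 4 lower, beside 7.05% of all genes, and limma-voom called 1 of 81. Here and below, the DESeq2 shares of all genes are over all 15119 genes tested, including any that DESeq2 gave no adjusted p. The list counts leave such genes out, so the 2 are not on the same base. DESeq2 called 2 of 79 in MI-E against Sham-E (1.4% of all genes), 0 of 81 in Sham-E against Sham (0.0132%) and 5 of 80 in the interaction (1.1%), and limma-voom called 0 in each of these. DESeq2 gave an adjusted p of 0.000434 for Fcer1g, 0.000114 for Id2, 0.0131 for Jund and 0.00159 for Atp6v1h, and limma-voom gave 0.0553, 0.0561, 0.0874 and 0.0573 for the same genes.

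Nfatc1, the master transcription factor of osteoclast formation, was 89.7 ± 5.31 CPM in MI-E, 99.0 ± 3.02 CPM in MI, 103 ± 14.0 CPM in Sham-E and 89.0 ± 5.76 CPM in Sham. Its log2 fold change was -0.14 ± 0.12 in MI-E against MI (adjusted p = 0.575) and 0.15 ± 0.12 in MI against Sham (adjusted p = 0.507). Itgb3, the beta subunit of the vitronectin receptor that osteoclasts use to attach to bone, had 0.30 ± 0.27 in MI-E against MI (adjusted p = 0.602). Tcirg1, the osteoclast form of the pump's large membrane subunit, had -0.06 ± 0.16 (adjusted p = 0.891).

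In MI-E against MI no gene of the 6 lists was called by edgeR or limma-voom, while DESeq2 called 4 of 80, Fos, Jund, Itgav and Atp6v1h, beside 3.82% of all genes. The genes with the smallest p included Jund (log2 fold change 1.41 ± 0.34, adjusted p = 0.112, edgeR) and Itgav, the alpha subunit partner of Itgb3 (-0.79 ± 0.18, adjusted p = 0.107). DESeq2 gave an adjusted p of 0.00431 for Jund, 0.00822 for Itgav and 0.0394 for Atp6v1h, and limma-voom gave 0.113, 0.124 and 0.152 for the same genes. At an unadjusted p under 0.05 there were, beside 17.4% of all genes, 3 of 8 cytokine and receptor genes, 8 of 20 signalling genes, 2 of 14 promoting and 0 of 6 restraining factors, 7 of 21 genes of acid and matrix breakdown and 2 of 12 adhesion and fusion genes. The median log2 fold changes of the lists lay between -0.32 and -0.06, beside -0.02 over all genes tested. In MI against Sham the medians lay between 0.02 and 0.33, beside 0.02 over all genes. Both comparisons use the MI libraries, so these medians are not independent.

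**Figure D5:**
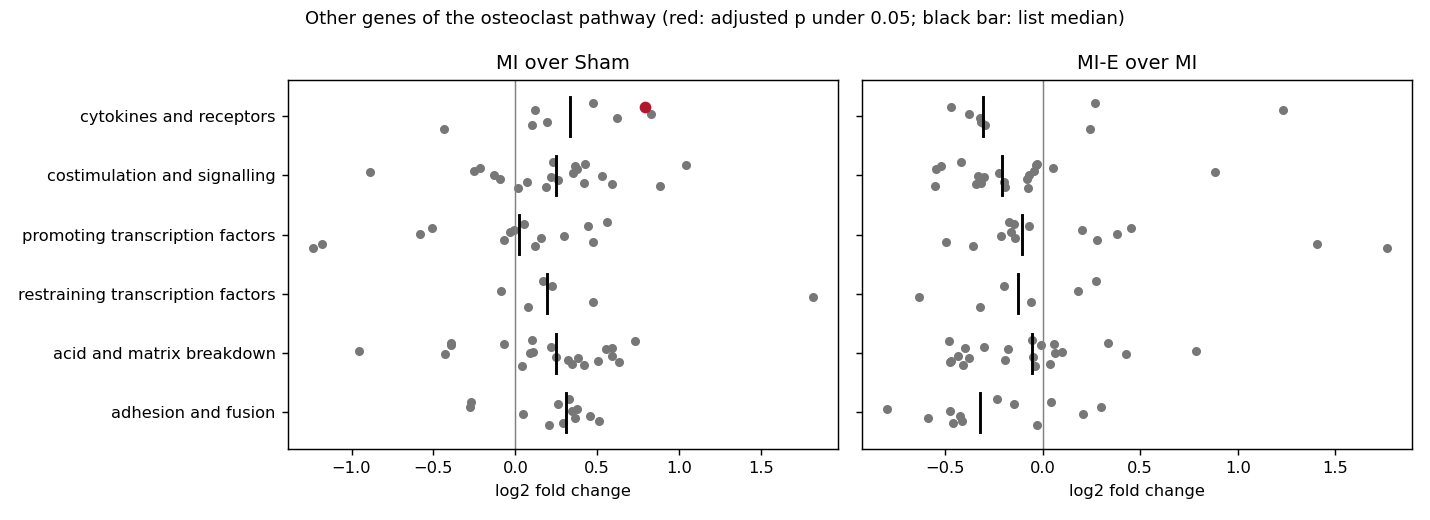
Log2 fold change of each tested gene of the 6 pathway lists in MI over Sham (left) and MI-E over MI (right), 1 point a gene, with a black bar at the median of the list. The single red point is Il6ra in MI over Sham at 0.79, the only gene of these lists with an adjusted p under 0.05 in edgeR in these comparisons.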

How the data were processed

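Whole bone marrow RNA was profiled in 12 libraries, 3 a group. Of the 2 tables the authors deposited, one holds unscaled expected counts as whole numbers and the other TPM, which are scaled by transcript length. Per the submitters' processing notes, the tools were RSEM, STAR 2.4.0j and CASAVA 1.8, and the build was mm10. The sources used here name neither the annotation nor the strand setting. Libraries are named by group and the number in the column header. Sham and MI-E columns were matched to their group alone, since their numbers differ from those in the sample titles.

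The expected counts, as deposited, were rounded and fitted with edgeR 4.0.16 (R 4.3.3; filterByExpr by group, TMM factors 0.941 to 1.06, robust quasi-likelihood F-test, 8 residual degrees of freedom, all 12 libraries). P-values were adjusted by the Benjamini-Hochberg method over 15119 genes, with a threshold of 0.05. DESeq2 1.42.0 and limma 3.58.1 (voom, and trend on log2(TPM + 1) and log2(TPM + 0.1)) were alternatives, with RLE and upper-quartile scaling, filters of at least 1 count and of a mean of 10 counts, fits of 2 groups alone, a block for column number and each library left out. The fit was checked on simulated data. CPM are TMM-scaled, correlations use log2 CPM with a prior count of 2, and insert length was recovered from count over TPM in genes with 1 transcript of 500 to 4000 bases and at least 100 counts. Intervals and the limit of 3 counts cover counting error only.

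The 7 genes, the 6 pathway lists and the marker lists were chosen with earlier results of these data known. Named genes of a pathway list were those past the threshold, or the one with the smallest p, plus Tnfsf11, Tnfrsf11b, Csf1, Csf1r, Nfatc1, Itgb3, Mmp9, Tcirg1, Calcr and Siglec15. Genes alike were the 3 (5 for the mean) with the highest r among genes whose mean log2 CPM reached 1; some genes named by this rule are not reported here. In the adhesion and fusion list, Tm7sf4 is an older symbol of Dcstamp and has no row.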

Additional observations from a re-analysis of the deposited data

How the results depend on the processing

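Under 22 alternatives, 12 of which left out a library, none of the 5 tested osteoclast genes passed the threshold in any comparison. Of 545 alternative log2 fold changes of these genes, 38 changed sign, 31 of them with a library left out; Acp5 kept its sign in every comparison but Sham-E against Sham. With the block for column number, signs changed for Acp5 in Sham-E against Sham (0.12), Ocstamp in MI-E against MI (0.22) and the interaction (0.069), and Tnfrsf11a in MI-E against MI (0.19). The Ctsk interaction was 0.41 with limma-voom, 0.17 on log2(TPM + 1) and 0.30 on log2(TPM + 0.1). With libraries left out, Acp5 ranged from -0.39 to 0.22 in Sham-E against Sham. Ctsk ranged from -0.16 to 0.73 in MI-E against Sham-E and from -0.54 to 0.33 in the interaction. Atp6v0d2 ranged from -0.56 to 0.20 in MI-E against MI, from -0.12 to 0.82 in Sham-E against Sham and from -0.89 to 0.046 in the interaction. Ocstamp ranged from -0.78 to 0.092 in MI-E against MI, from -0.70 to 1.18 in Sham-E against Sham, from -0.20 to 1.79 in MI-E against Sham-E and from -1.52 to 0.47 in the interaction. Tnfrsf11a ranged from -0.17 to 0.23 in MI against Sham and from -0.21 to 0.19 in MI-E against MI. The cause was not tested. Same-numbered libraries did not deviate together (13 pairs, r from -0.206 to 0.15, median -0.0069), so column numbers were not taken as pairs. Over all genes, calls in MI against Sham were 63, against 1 with the block, 1066 with DESeq2, 1 without Sham 1 and 1224 without Sham-E 1. In MI-E against MI they were 1, and up to 577 in other settings and 988 without MI 1. At 0 to 5 counts per library, Dcstamp and Oscar allow no statement on group differences.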

Other observations

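Osteoblasts and bone matrix are the partners of osteoclasts in bone turnover, and 10 of the 12 tested genes of the osteoblast and bone matrix list lay lower in MI than in Sham, with a median log2 fold change of -1.57 beside 0.02 over all genes. In Sham-E against Sham, without infarction, 10 of the 12 also lay lower, with a median of -0.90 beside 0.01 over all genes, and in MI-E against MI 7 of 12 did, with a median of -0.17. MI against Sham and Sham-E against Sham share the Sham libraries, whose mean insert lengths were above those of every other library. Bglap, which encodes osteocalcin, was 0.159 ± 0.157 CPM in MI-E, 0.312 ± 0.0751 CPM in MI, 0.365 ± 0.225 CPM in Sham-E and 3.51 ± 1.33 CPM in Sham (SD, n = 3 each). It fell by 3.47 on the log2 scale in MI against Sham (SE 0.62, adjusted p = 0.0369, edgeR), the only gene called among 12 tested of 16 in the osteoblast list, beside 0.417% of all genes. In Sham-E against Sham it had -3.25 ± 0.60 (unadjusted p = 0.00014, adjusted p = 1.0). It passed the threshold in 13 of 22 alternatives, with log2 fold changes from -3.74 to -3.13 and adjusted p from 1.06e-05 to 0.205. Reads of Bglap may be shared with its near copies Bglap2 and Bglap3, so its own value is uncertain. Col1a1, the main collagen of bone, averaged 8.05 ± 3.63 CPM in MI-E, 8.91 ± 3.24 CPM in MI, 16.01 ± 11.05 CPM in Sham-E and 56.7 ± 23.7 CPM in Sham, with an adjusted p of 0.062 in MI against Sham.

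Siglec15 had 6 counts summed over 3 MI-E libraries, 1 in MI, 9 in Sham-E and 26 in Sham, so Sham was highest here as well. Its MI-E sum was above its MI sum, but MI-E 4 and MI 3 had 1 count each, so the groups were not apart. Of the 12 tested genes of the osteoblast list, 5 also lay higher in MI-E than in MI and 7 lower, with Bglap and Col1a1 among the 7. No test compared these profiles. Siglec15 missed the filter on low counts, and a fit without that filter gave an unadjusted p of 0.00312 and an adjusted p of 0.132 in MI against Sham (edgeR). In MI-E against MI the same fit gave an unadjusted p of 0.114 and an adjusted p of 0.548. How far the bone content of the samples bears on these genes or on the osteoclast genes was not tested.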
